A study of Astyanax mexicanus with 6 samples.

Results

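Methylation was set against expression level, gene by gene, in surface-morph eyes of the Mexican tetra (Astyanax mexicanus), a river fish whose cave-dwelling relatives lose their eyes. Of 25271 annotated genes, 23798 had 20 or more calls in the upstream region, 25041 had as many in the gene body, 23583 had them in both, and 25256 had them in either. The groups were surface RNA, with 2 libraries, and surface whole-genome bisulfite sequencing (WGBS), with 1 library. All 3 came from eyes of wild-type embryos dissected at about 54 hours post-fertilization, with no treatment named. A gene's expression was its mean CPM (its count scaled to the total of the library) over the 2 RNA libraries. Its methylation was the percent of its calls that were methylated. WGBS reads methylated cytosines as C and unmethylated ones as T, each reading of a cytosine being 1 call.

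In vertebrates most cytosines that precede a guanine are methylated, while promoters of widely used genes commonly lie in short unmethylated stretches. Methylation at a promoter usually goes with silence of the gene, whereas the body of a transcribed gene is usually methylated. Clusters of developmental regulators are a known exception, since they can be silent and unmethylated, held by Polycomb proteins instead.

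The RNA libraries held 146907747 and 154476181 counts in replicates 1 and 2, and the WGBS library held 42555064 calls upstream and 448796711 in gene bodies. The median gene had 924 calls upstream and 8176 in its body. With 1 WGBS library there is no replicate of any methylation value, so intervals cover counting error only and no p-value is given. Genes are not replicates of a condition, and classes of genes are compared as descriptions. The labelled tissue was checked against marker genes. The 8 of 10 listed retina markers found, as 9 genes, all stood at 12.3 CPM or more, and their summed level was 776 and 656 CPM in the 2 libraries. The 5 of 6 epidermis markers found summed to 8261 and 10298 CPM, the 4 pigment epithelium markers to 1150 and 837 CPM, and the 4 forebrain markers to 97.6 and 166 CPM. The 2 of 4 muscle markers found summed to 85.8 and 102.1 CPM and the 1 of 4 blood markers found to 48.7 and 26.0 CPM. The 4 of 5 lens markers found summed to 58.4 and 44.3 CPM, and no marker found was at 0 CPM. Photoreceptor markers were nearly absent, with 5.83 and 10.1 CPM for the 5 of 6 found. Counts of rho, which encodes the opsin of rods, were 0 and 7 under the surface label and 17664 and 26989 under the cave label. These counts raise a doubt about the labels, since it is the cave morph whose eyes degenerate. The doubt rests on rho alone, as no other marker was compared between the labels. Whether the RNA labels are exchanged was not settled, and every CPM given here is that of the libraries labelled surface. With the libraries labelled cave in place of those labelled surface, the class difference was 38.2 points upstream, against 39.1, and 9.03 points in gene bodies, against 8.99. The eyes were sequenced in bulk, so fewer cells of a type and less RNA per cell cannot be told apart, and methylation is an average over all cells.

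The first comparison asks how methylation differs between genes that are nearly silent and genes that are well expressed. Nearly silent genes, at a mean CPM under 0.1, were mostly methylated upstream, and their median was 83.6% (quartiles 71.1% and 88.6%; 2848 genes). Genes at 10 CPM or more had a median of 44.4%, and their quartiles of 8.68% and 79.6% spanned nearly the whole scale (10309 genes). The difference of the medians was 39.1 points, and 23.6 points for genes whose nearest neighbour lies more than 5 kb away. In the nearly silent class 6.88% of upstream regions, 196 in all, were under 10% methylated, and in the expressed class 26.7% were, 2757 in all. Over all genes 18.8% were. At the other end, 17.6% of nearly silent genes and 7.79% of expressed genes were at 90% or more, against 11.5% of all genes. The classes overlap widely: 86.1% of nearly silent genes lay above the median of expressed genes, and 19.4% of expressed genes lay above the median of nearly silent ones.

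**Figure D1:**
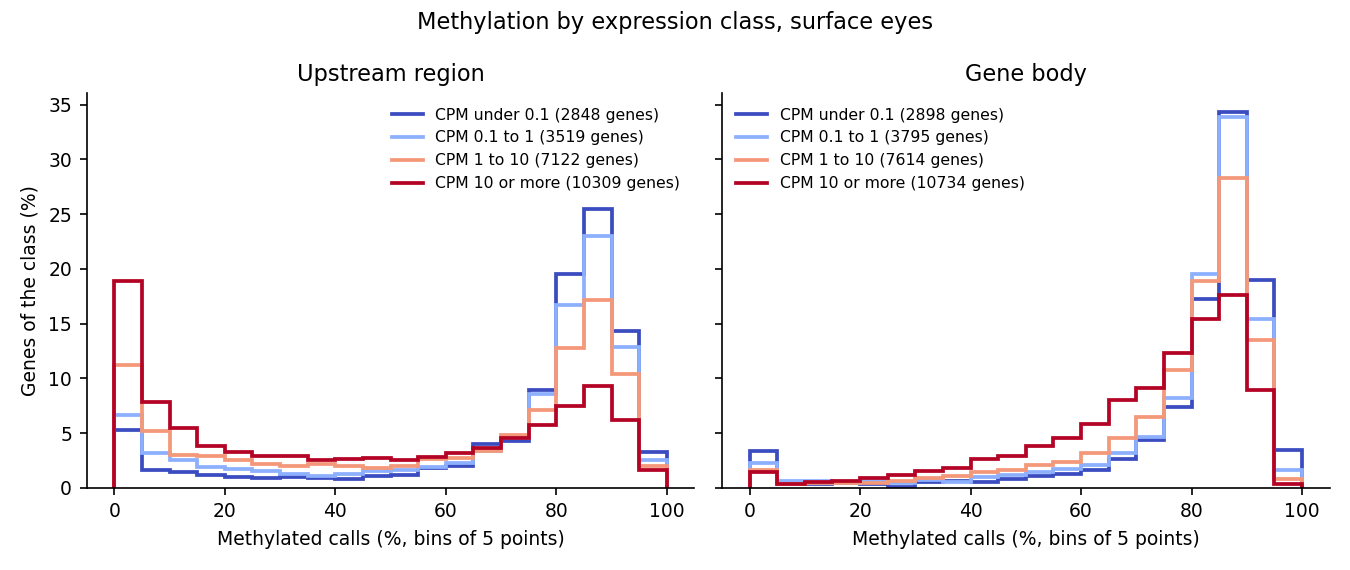
Share of the genes of each expression class (y axis, percent) in bins of 5 points of methylation (x axis, percent of calls), upstream at left and in gene bodies at right, with 1 line for each class of mean CPM. Upstream, 18.9% of genes at 10 CPM or more lie in the lowest bin and 5.27% of genes under 0.1 CPM do, while in gene bodies all 4 classes peak between 85% and 90%.

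Both classes had a low and a high mode, and the classes differed in the shares of genes at these modes and between them. Of nearly silent genes 5.27% lay in the bin from 0% to 5% and 25.5% in the bin from 85% to 90%. Of expressed genes 18.9% and 9.30% lay in the same bins. Each bin from 10% to 65% held a larger share of expressed than of nearly silent genes. From 40% to 45%, for example, the shares were 2.66% and 0.843%. Genes between these classes were intermediate. The median was 81.8% from 0.1 to 1 CPM (3519 genes) and 74.5% from 1 to 10 CPM (7122 genes), 9.8% and 16.4% of these classes were under 10% methylated, and 15.3% and 12.4% were at 90% or more.

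Gene bodies were methylated in all classes and differed less. Their median was 86.0% in nearly silent genes (quartiles 79.6% and 89.6%; 2898 genes) and 77.0% in expressed genes (62.4% and 85.6%; 10734 genes), a difference of 8.99 points. Bodies under 10% methylated were rare, at 3.86% of nearly silent and 1.83% of expressed genes, with 2.87% from 0.1 to 1 CPM, 2.01% from 1 to 10 CPM and 2.28% of all genes. Bodies at 90% or more were 22.4% of nearly silent and 9.31% of expressed genes, with 17% and 14.3% in the classes between them and 13.5% of all genes. For bodies under 10%, the larger share of nearly silent genes was not seen within tertiles of gene span. The shares were 5.46% of nearly silent and 7.91% of expressed genes in the shortest tertile. In the middle one they were 0.498% and 0.621% (603 and 4190 genes), and in the longest 0% in both classes. Within every tertile of calls in the gene body the nearly silent share was the larger. It was 3.48% against 2.01% in the tertile with fewest calls, and 1.75% against 1.25% in that with most. Bodies at 90% or more were not split by tertile. This difference of 8.99 points depended on the measure: it was 4.20 points for the percent over all calls of a class pooled, 5.49 for genes whose nearest neighbour lies more than 5 kb away, 14.1 with an upper class of 50 CPM or more, and 22.4 when CPM was divided by gene length.

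Genes on either side of the class limits had similar medians. Genes from 0.09 to 0.10 CPM had an upstream median of 83.7% (86 genes) and those from 0.10 to 0.11 CPM one of 81.7% (96 genes). From 9 to 10 CPM the median was 64.7% (429 genes) and from 10 to 11 CPM it was 60.1% (376 genes). The 156 upstream regions with 10 to 19 calls, all of those with any calls below the minimum, had a median of 80%, and the 119 with 20 to 29 calls had one of 82.8%. The RNA libraries placed genes alike. Of 3080 genes under 0.1 CPM by the mean 2755 were so in each library alone, and of 10734 at 10 CPM or more 10187 were. No gene was under 0.1 CPM in 1 library and at 10 CPM or more in the other.

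Across deciles of expression, the upstream median fell mainly between deciles 3 and 9. The gene body median fell at every step, with its largest step at the top. Genes with 0 counts in both libraries, kept apart, had an upstream median of 83.7% (1015 genes). Among the 22783 genes with at least 1 count, the upstream median was 83.3% in decile 1, 80.5% in decile 3, 71.1% in decile 5, 51.5% in decile 7 and 36.8% in decile 10. It fell in 8 of 9 steps, and deciles 9 and 10, at 36.7% and 36.8%, were level. The first quartile moved earlier, standing at 70.6% in decile 1, 45.6% in decile 3 and 21.2% in decile 5, while the third quartile was still 81.5% in decile 8. Within each decile from 4 to 10 the quartiles lay further apart than the medians of deciles 1 and 10, which differed by 46.5 points. Spearman's rho between CPM and upstream percent was -0.31 across these genes, a description, since genes share 1 library and CPM depends on gene length. It was weaker, at -0.26, with CPM per kilobase of gene length.

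In gene bodies the median was 86.0% in decile 1 and 69.5% in decile 10, and it fell in all 9 steps. The largest step was the last, with 75.9% in decile 9 and 69.5% in decile 10. The rho was -0.28 across 24056 genes, and -0.21 with CPM per kilobase of gene length. Decile 10 began at 75.6 CPM for genes with upstream calls and reached 7155 CPM.

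**Figure D2:**
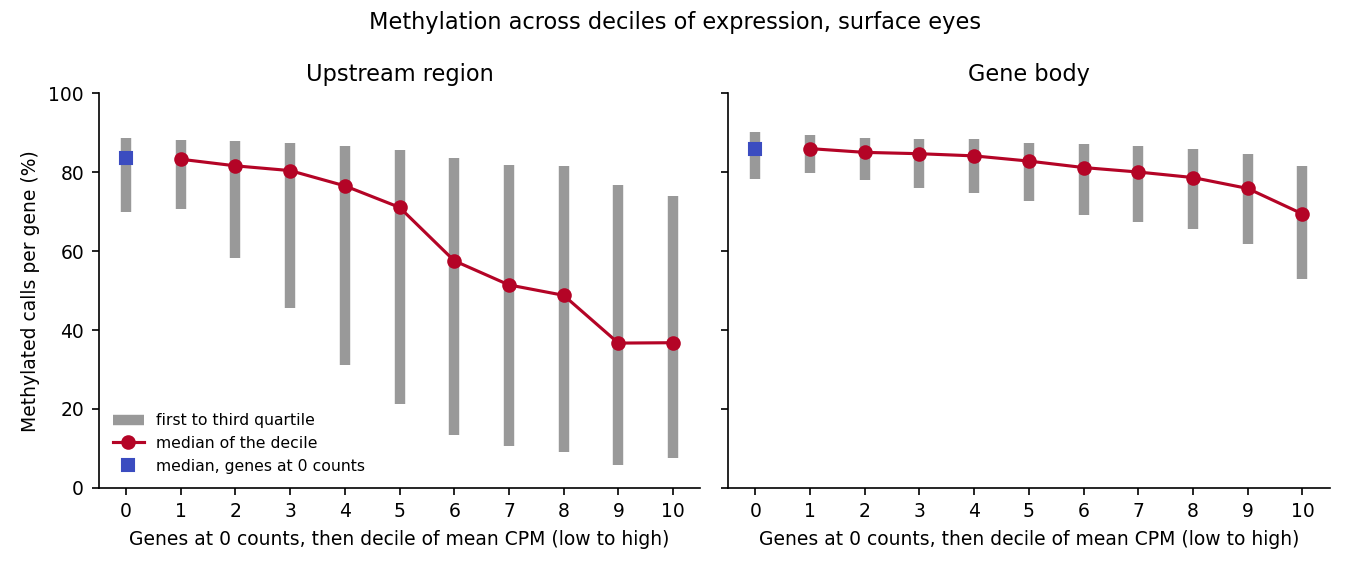
Methylated calls per gene (y axis, percent) for genes at 0 counts and for deciles of mean CPM from low to high (x axis), upstream at left and in gene bodies at right; points are medians and grey bars run from the first to the third quartile. The upstream median is 83.3% in decile 1 and 36.8% in decile 10, with wide bars from decile 4 on, and the gene body median is 86.0% in decile 1 and 69.5% in decile 10.

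Within 1 gene the upstream region was on the whole less methylated than the body, and more so in expressed genes. The median difference, upstream minus body, was -2.33 points in nearly silent genes (2679 genes with both regions) and -20.2 points in expressed genes (10309 genes). An upstream region lower than its body by 50 points or more was found in 5.86% of nearly silent and 30.04% of expressed genes. The reverse pattern, upstream higher by 50 points or more, was found in 0.859% and 1.08%. Where the upstream region was under 10% methylated, the body had a median of 25.4% in the 188 nearly silent genes with both regions and of 71.6% in the 2757 expressed genes. Of these genes, 79 of the nearly silent ones and 147 of the expressed ones had a body under 10% too, which is 42.0% and 5.33% of them. With an unmethylated upstream region, the body was thus mostly methylated in expressed genes and often unmethylated too in nearly silent ones. The median span was 11844 bp for these expressed genes and 1853 bp for the 196 nearly silent ones with upstream calls. Of those 196 genes 38 were hox genes, described next. Averages over a region do not show where an unmethylated stretch ends, and the part of span was not tested.

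Among nearly silent genes with an unmethylated upstream region were many hox genes, the homeodomain regulators that set position along the body axis. Of the 196 such genes 38 were hox genes, and 107 (54.6%) had no informative symbol, 18 of these being named as small non-coding RNAs. In the whole class of 2848 genes 24.7% had an informative symbol, and 163 were named as small non-coding RNAs. All 38 hox genes under 0.1 CPM were under 10% methylated upstream, against 6.88% of that class, and their highest value was 4.66%. The gene hoxd9a (ENSAMXG00000006985, scaffold KB882244.1, 139958 to 142137) had 0 and 6 counts in the 2 RNA libraries. It had 0 of 193 upstream calls methylated, which allows a level of up to 1.55%, and its body stood at 0.867% of 4616 calls. The gene HOXC9 had 0 counts in both libraries and 0.335% of 1491 upstream calls methylated, and hoxc13a had 2 and 4 counts and 0.538% of 1860 calls. Both lay as low as hoxd9a within counting error.

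The same pattern held for bodies of hox genes. Of 45 hox bodies 43 were under 10% methylated, against 2.28% of all genes, with a median of 1.76%. The least methylated bodies among nearly silent genes with a symbol were all hox genes: hoxd9a, hoxb6b (0.924%), hoxd13a (0.93%), hoxa10b (1.00%), hoxb9a (1.14%) and hoxc11b (1.25%). The exception upstream was hoxa1a, a hox gene of the anterior end of its cluster, with 24 and 110 counts. It stood at 28.3% of 4115 calls upstream (95% exact interval 27.0% to 29.7%) and at 28.9% in its body. A related regulator outside the clusters, cdx4, which acts on hox genes in the posterior embryo, had 0 counts in both libraries, 0.146% of 683 upstream calls methylated and a body at 2.33%.

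The remaining named genes of that corner had higher body levels. The gene dlg4b, named for a scaffold protein of the synapse, had 2 and 0 counts, 0.329% of 912 calls upstream and 76.8% in its body, and a gene on the opposite strand starts within 2 kb of it. The gene arl1, named for a GTPase of the Golgi, had 0 counts in both libraries and 0 of 154 upstream calls methylated, which allows up to 1.95%. Its annotated start lies inside another gene, so reads may be shared between them, and its body stood at 30.1%.

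At the methylated end of the nearly silent class, genes with a symbol and 100 or more upstream calls were ranked. The highest was tssk6 (ENSAMXG00000021341, KB871633.1, 642240 to 643818), a protein kinase of the testis in mammals. It had 0 counts in both libraries and all 162 upstream calls methylated (95% exact interval 97.7% to 100%). Next was slc2a9l1, named for a sugar transporter, at 98.8% of 167 calls. They were followed by GPRC5C, an orphan receptor (98.0%), the amino acid transporter gene slc6a14 (97.4%), the potassium channel subunit gene KCNE2 (97.3%) and the odorant receptor gene or137-6 (97.0%). Bodies of all these genes were methylated as well, between 76.7% for slc6a14 and 91.7% for tssk6. The annotated start of tssk6 lies inside another gene, so reads may be shared between them. On their scaffolds slc2a9l1 and GPRC5C have no gene upstream, so their upstream regions may be cut short. Of the 501 nearly silent genes at 90% or more, 403 (80.4%) had no informative symbol, in a class where 24.7% of genes had one. None of the 501 was a hox gene. By position, 83 of them had no gene upstream on their scaffold and 94 started inside another gene, against 14.4% and 13.3% of the class.

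Of the expressed genes with an unmethylated upstream region, the 6 of highest CPM included genes of general cell function. The translation elongation gene eef1a1l1 (ENSAMXG00000020651, KB882093.1, 1416816 to 1419657) had 5467 and 5725 CPM and 1.66% of 1811 upstream calls methylated. The cytoplasmic actin gene actb1 had 3468 and 3404 CPM and 0.976% of 1434 calls methylated, against 81.8% in its body. The cold-inducible RNA-binding protein gene cirbpb stood at 2.49%, the ribosomal protein gene rpl7 at 2.4%, the brain creatine kinase gene ckbb at 7.08% and the RNA-binding protein gene ybx1 at 2.81%. Bodies of these 6 genes ranged from 33.1% for ybx1 to 84.7% for cirbpb. Some transcripts as abundant were methylated upstream, such as the ribosomal protein gene rps3a, chosen after its values were seen, with a mean of 4396 CPM and 85.2% of 480 calls.

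The opposite corner, expressed genes at 90% or more upstream, held 803 genes, whose bodies had a median of 86.1%. By level they began with the ribosomal protein gene rps3 (ENSAMXG00000013642, KB882240.1, 789322 to 798393), with 2635 and 2469 CPM and 92.9% of 1254 upstream calls methylated (95% exact interval 91.3% to 94.3%). The splicing factor family gene hnrnpaba, with 1610 and 1692 CPM, stood at 95.3% of 678 calls, and ran, the GTPase of nuclear transport, with 1428 and 1260 CPM, at 90.7% of 1273 calls. The bodies of these last genes lay well under that median, at 25.9% for hnrnpaba and 14.5% for ran. The collagen gene col1a2 (95.7% of 161 calls), the cathepsin gene ctsla (91.5%) and the matrix protein gene sparc (91.7%) followed. Of these 803 genes 101 had no gene upstream on their scaffold and 67 started inside another gene, against 6.15% and 3.62% of the class. In these positions the upstream region may be cut short or shared. Among the named genes, col1a2 has no gene upstream on its scaffold. A neighbour within 2 kb on the same strand lies upstream of rps3 and of hnrnpaba.

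Expressed genes with a low body numbered 325 under 20%, which is 3.03% of that class, against 4.69% of the nearly silent class and 3.31% of all genes. By level they began with the cyclophilin gene ppiaa (3541 CPM, body 14.9%), the ribosomal protein gene rps29 (1545 CPM, 7.90%), ran, the nuclear protein gene ptmaa (1315 CPM, 7.81%), the histone chaperone gene setb (1191 CPM, 15.3%) and sumo3a (1012 CPM, 7.5%). Upstream levels of these 6 genes ranged from 7.0% for sumo3a to 90.7% for ran, while all 325 had an upstream median of 4.52%, and 236 of them were under 20% in both regions. These 325 genes had a median span of 3148 bp, against 13824 bp for all expressed genes with body calls. Of them 56 were transcription factor genes of the eye field and wider developmental lists described next. At 10 CPM or more those lists held 30 and 105 genes, some in both, among the 10734 expressed genes.

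Within 1 expression class, upstream methylation differed widely between groups of genes. Regulators of the eye field and of retinal progenitors had a median of 3.05% upstream (34 of 35 genes found), and 18 of the 30 at 10 CPM or more were under 10% methylated, against 26.7% of that class. Among them otx2, needed in the retina and its pigment epithelium, had 196 and 159 CPM, with 2.53% upstream and 3.09% in its body. Not all were low: foxn4, a regulator of early retinal cell fates, was at 34.2 CPM and 89.7% of 909 calls upstream, and prdm1a at 137 CPM and 87.9% of 165 calls. One copy of rx1 (ENSAMXG00000015083) stood at 83.5% and the other (ENSAMXG00000021639) at 39.7%, with means of 29.1 and 37.7 CPM.

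The wider list of developmental regulators (homeodomain, sox, tbx, gata, fox, bHLH and nr2f families) had 74 of 104 genes at 10 CPM or more under 10% methylated upstream, against 26.7% of that class. Their median was 2.53%, against 44.4% for all expressed genes. Of the 9 of its members under 0.1 CPM with upstream calls 3 were under 10%, against 6.88% of that class. Their median was 59.9%, against 83.6% for the class. By comparison, all 38 hox genes at that level were under 10%. The 4 forebrain markers are all members of this wider list and are counted in it. They were low in both regions, between 1.29% and 1.65% upstream and between 1.96% and 2.37% in the body, with 17.4 to 55.0 CPM.

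Lists of genes of differentiated cells mostly had higher medians while expressed, though few of their members reached 10 CPM. Of 14 skeletal muscle genes at that level none was under 10% methylated upstream, against 26.7% of the class, and their median was 81.8%. Of 7 phototransduction genes none was either, with a median of 76.5%, and of 8 lens genes 1 was, with a median of 81.1%. Of 3 liver and plasma protein genes none was (median 87.2%), and of 25 neurotransmitter receptor genes 5 were (median 72.8%). The lymphocyte list went the other way, with both of its 2 genes at that level under 10% and a median of 5.52%. These 2 include gata3, which is also in the list of developmental regulators and acts outside lymphocytes too. Which members reach 10 CPM rests on the RNA labels questioned above, and the lists were not recomputed with the libraries labelled cave. The lens gene crygn2, with 49.3 and 37.1 CPM, had 92.1% of 1409 upstream calls methylated. The epidermal keratin genes krt5 and krt4 were among the most abundant transcripts, with 4648 and 5609 CPM for krt5 and 2847 and 3943 CPM for krt4. Their upstream regions were methylated at 82.6% of 1766 calls and 73.0% of 403 calls. In the same marker list epcam, an adhesion gene of epithelia with 594 and 567 CPM, was lower, at 27.3% of 1570 calls. The melanosome gene pmela, with 670 and 472 CPM, stood at 74.0% of 908 calls. Such genes are used mainly in single cell types, and the share of eye DNA that came from those cells was not measured.

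**Figure D3:**
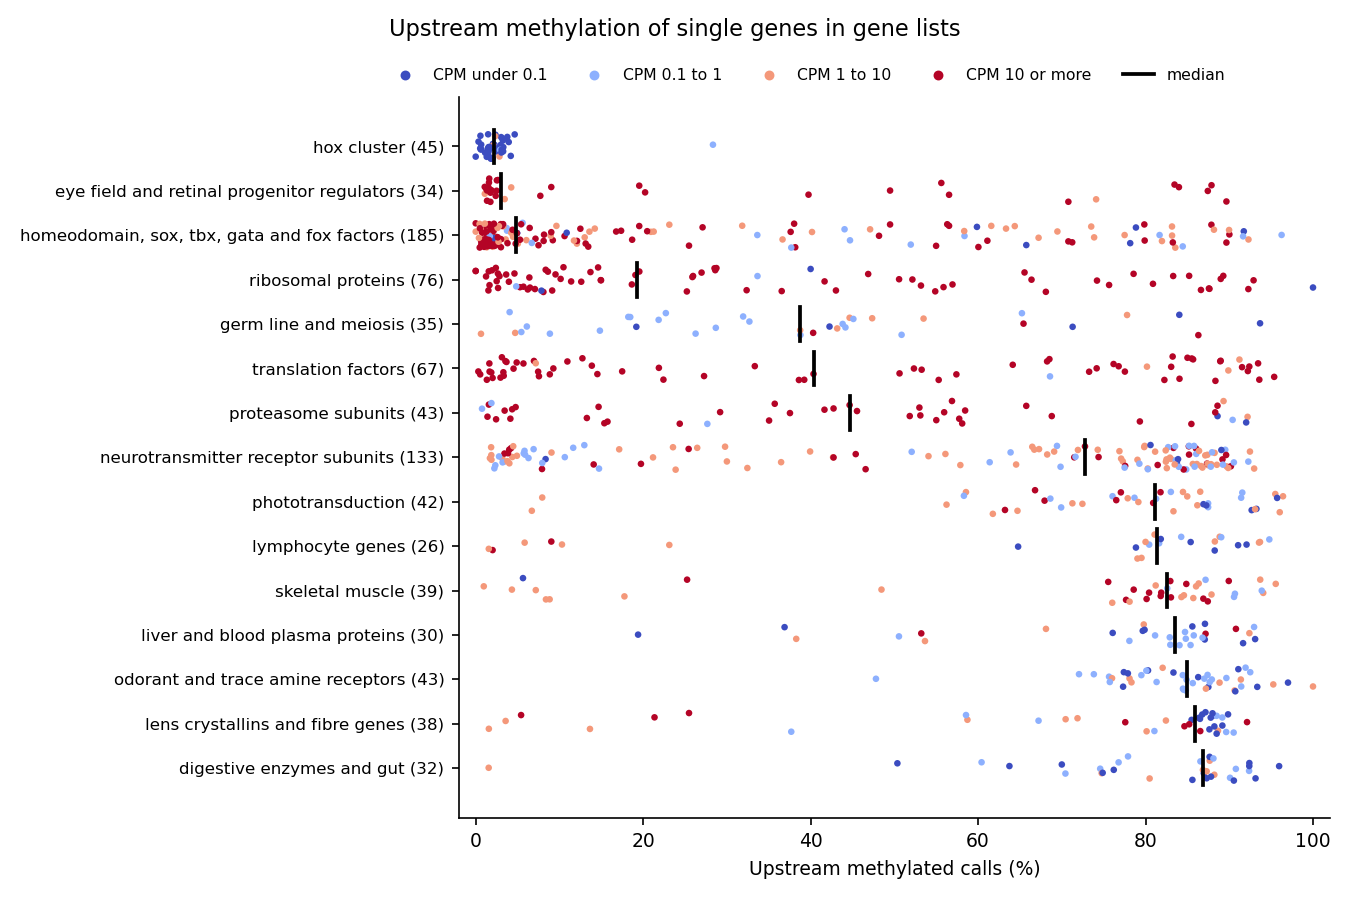
Upstream methylation (x axis, percent of calls) of each gene with 20 or more calls in 15 gene lists (rows, with the number of genes); colour gives the class of mean CPM, black bars are medians, and vertical scatter within a row has no meaning. Hox genes sit at a median of 2.24% although most are under 0.1 CPM, while digestive enzyme genes sit at 86.9%.

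Genes of general cell function lay between these groups. Ribosomal protein genes had a median of 19.3% upstream (76 genes), with 28 under 10%, against 18.8% of all genes, and among the 71 at 10 CPM or more 26 were under 10%, against 26.7% of that class. Under 20% there were 39 of the 76, against 25.6% of all genes. Within the list rps16 stood at 1.23% and rpl35a at 92.3%, both well expressed. The median was 40.3% for eif- and eef-named translation genes (67 genes, 22 under 10%) and 44.7% for proteasome subunits (43 genes, 9 under 10%). All genes had a median of 70.6%. At 10 CPM or more the 2 medians were 38.9% (62 genes, 21 under 10%) and 42.7% (35 genes, 7 under 10%). Both lay near the median of that whole class, 44.4%, of which 26.7% were under 10%. Bodies of ribosomal protein genes were low for the series, with a median of 53.9%, against 77.0% for all expressed genes. Nearer comparisons are lower, at 69.5% in decile 10 of expression and 65.4% for expressed genes in the shortest tertile of span. The parts of level and span were not tested.

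Lists of sensory receptor, liver and gut genes, most of them expressed at low levels, were mostly methylated upstream, as were genes at such levels in general. Of all genes 18.8% were under 10%, and of the classes under 0.1 CPM and from 0.1 to 1 CPM 6.88% and 9.8% were. The medians of these 2 classes were 83.6% and 81.8%. None of 43 odorant and trace amine receptor genes was under 10% (median 84.9%), none of 30 liver and plasma protein genes (83.5%), and 1 of 32 digestive and gut genes (86.9%). That gene was sst1.1, which encodes a somatostatin, a peptide also made by neurons, at 7.09 CPM, with 1.55% of 6970 upstream calls methylated and 1.76% in its body. Lymphocyte genes had a median of 81.4% (26 genes), with 4 under 10%, among them gata3, which also acts outside lymphocytes. The lowest of the muscle list was tcap at 0.965%, at 1.98 CPM. Neurotransmitter receptor genes spread over the scale, with 28 of 133 under 10% and a median of 72.8%, near the 18.8% and 70.6% of all genes.

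Germ line and meiosis genes were intermediate rather than high. Their median was 38.8% upstream (35 of 36 found, of 67 names listed), with 6 under 10% and 1 at 90% or more, although 25 of the 36 were under 1 CPM. For comparison, all genes from 0.1 to 1 CPM, where 20 of them lay, had a median of 81.8%, with 9.8% under 10% and 15.3% at 90% or more. Over all genes the shares were 18.8% and 11.5%. Within the list dnd1, a germ plasm gene, had 0 counts in both libraries and 93.7% of 601 calls methylated. By contrast henmt1, which modifies small RNAs of the germ line, had 86 and 91 counts and 4.05% of 1827 calls. A gene on the opposite strand starts within 2 kb of henmt1, so the region may be shared. Bodies of the listed genes had a median of 82.3%.

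Depth and gene structure moved with the class difference. Nearly silent genes with upstream calls had a median span of 2589 bp, and expressed genes one of 13960 bp. By tertile of span, from short to long, the upstream medians were 83.4%, 83.6% and 84.2% in nearly silent genes and 30.1%, 41.3% and 53.5% in expressed genes. The nearly silent class hardly moved, while the expressed class was lowest among short genes. The same was seen in gene bodies, at 86.6%, 85.5% and 84.8% in nearly silent genes and 65.4%, 72.0% and 80.3% in expressed genes, so that the body difference was 21.2 points in the shortest tertile and 4.49 points in the longest.

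By tertile of calls in the upstream region, from few to many, the medians were 82.6%, 84.4% and 83.6% in nearly silent genes and 66.9%, 50.3% and 13.4% in expressed genes. The class difference was thus 15.7 points in regions with fewest calls, up to 647, and 70.2 points in those with most, from 1491 on. A region gains calls from reading depth and from the number of cytosines it holds, and these cannot be told apart in the table. The part of span and calls in the class difference was not tested further.

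**Figure D4:**
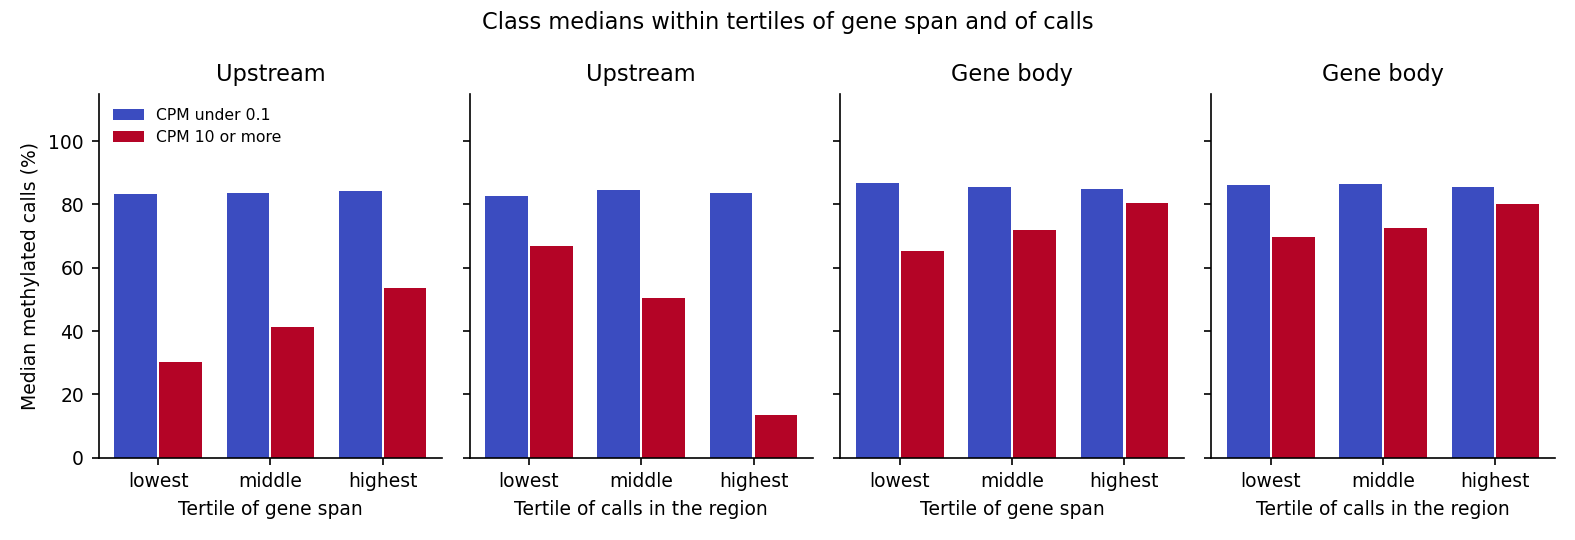
Median methylated calls (y axis, percent) of genes under 0.1 CPM (left bar of each pair) and at 10 CPM or more (right bar), within tertiles of gene span and of calls in the region (x axis), for upstream regions and gene bodies. Upstream, nearly silent genes stay between 82.6% and 84.4% in all tertiles, and expressed genes range from 13.4% to 66.9%.

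The position of the neighbouring gene also moved with upstream methylation. Genes whose nearest upstream neighbour lies head to head, on the opposite strand with its start within 2 kb, can share 1 promoter region with it. Among the 88 nearly silent genes in that position the upstream median was 45.4% and 22 were under 10%, which is 25%, against 6.88% of the class. Among the 1143 expressed genes in that position the median was 5.48% and 61.9% were under 10%. A neighbour within 2 kb on the same strand went with a higher median in expressed genes, at 65.4% (1004 genes). It was 46.25% where the nearest upstream gene lay farther than 2 kb. Expressed genes that start inside another gene (73.1%) or have no gene upstream (75.3%) stood higher still. In nearly silent genes the median with a same-strand neighbour was 84.3% (231 genes), near the 83.3% with the nearest upstream gene farther away.

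Upstream methylation in the nearly silent class also differed with the level of that head-to-head neighbour. Where it was at 10 CPM or more, the nearly silent gene had an upstream median of 17.4% (33 genes, 15 under 10%), and where it was lower the median was 67.9% (55 genes, 7 under 10%). These splits by neighbour were chosen after other values of the data had been seen. Without genes in that position, those that start inside another gene and those with no gene upstream, the upstream difference between the classes was 33.9 points. For genes whose nearest neighbour on either side lies more than 5 kb away it was 23.6 points, since expressed genes then had a median of 60.5%, against 84.1% in nearly silent ones.

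**Figure D5:**
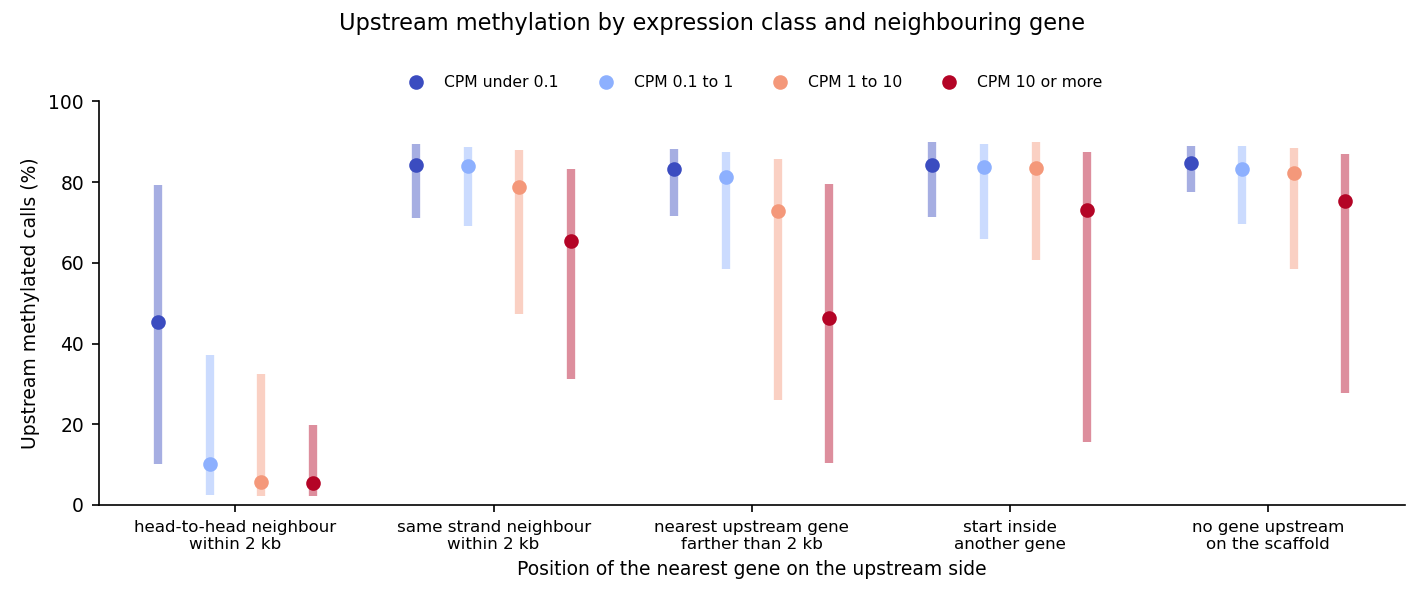
Upstream methylated calls (y axis, percent) by position of the nearest gene on the upstream side (x axis) and class of mean CPM (colour); points are medians and bars run from the first to the third quartile. With a head-to-head neighbour within 2 kb the medians are 45.4% under 0.1 CPM and 5.48% at 10 CPM or more, the lowest of the 5 positions for each of these classes.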

How the data were processed

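RNA libraries and WGBS were made from the same kind of dissected eyes with TruSeq kits on an Illumina HiSeq instrument, per the labels' protocols. Bismark, Trimmomatic, STAR, featureCounts, Subread and DESeq2 appear in the submitters' processing notes, with no version. How wide the upstream region is, which cytosine contexts were counted, whether duplicates were removed and which genome build was used are not given in the sources used. The RNA table deposited by the authors holds raw counts per gene, and the methylation table holds, for each gene body and upstream region, their count of methylated calls and of unmethylated calls. Gene coordinates are base positions on scaffolds, copied from the deposited methylation table.

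Both tables were joined on the gene identifier, which matched for all 25271 genes. Symbols came from the methylation table, because 1220 symbols in the count table differ from it, of which 1204 are equal once every zero is removed from both. Of counts from 1 to 30, 86.6% and 79.1% were even in surface replicates 1 and 2. CPM is each count divided by the total of its library and is not scaled by length. Python 3.11.15, pandas 2.3.3, numpy 2.4.6, scipy 1.17.1 and matplotlib 3.10.9 were used, with edgeR 4.0.16 in R 4.3.3 for TMM factors. Single levels carry exact (Clopper-Pearson) 95% intervals, and a level of 0 the limit of 3 calls. Both cover counting error only and are too narrow, since calls on 1 read are not independent. The summaries were tested on simulated data. Whether separate pools of embryos gave the RNA libraries is not in the labels.

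The gene lists and the classes were chosen with earlier results of these data known, and no test was run on them. After values were seen, lists matched by name were corrected: hox genes named without a final letter were added, and foxred, paxip, tbxa, gatad, htra and grina genes, which belong to other families, were left out. The rule for named genes took, at 100 or more calls and not above the 99th percentile of calls, 6 genes from each of 6 corners (lowest or highest percent in nearly silent genes, highest CPM in expressed genes), the 2 lowest and 2 highest upstream members of each of the 15 lists, and the cell type markers. Genes named outside it, rho among them as a marker, are given for the checks above. A gene was called without informative symbol where it had none, a clone or locus name, or the name of a small non-coding RNA.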

Additional observations from a re-analysis of the deposited data

How the results depend on the processing

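Nearly silent genes stayed above expressed genes in upstream and gene body medians under all 17 alternatives, and deciles kept their direction under all 6. Leaving out an RNA library gave 38.7 to 39.9 points upstream and 8.76 to 9.37 in bodies, and decile 10 minus decile 1 gave -46.5 to -45.0 upstream and -16.4 to -16.3 in bodies. The spread (SD) of those pairs was 0.863, 0.433, 1.04 and 0.118 points, and other values are given where they moved by more. The upstream difference (39.1) was 38.2 points with a lower class under 1 CPM, 47.5 with an upper class of 50 CPM or more, 50.3 with CPM per kilobase of gene length, 42.6 for genes with a symbol, 23.6 for genes with no neighbour within 5 kb, 36.2 for pooled calls and 38.2 with the libraries labelled cave. Without genes that have a head-to-head neighbour, start inside a gene or have no gene upstream, an alternative chosen after seeing the data, it was 33.9. The body difference (8.99) was 14.1 points with an upper class of 50 CPM or more, 22.4 with CPM per kilobase, 10.3 for genes with a symbol, 5.49 with no neighbour within 5 kb and 4.20 for pooled calls. Decile 10 minus decile 1 was -49.5 points upstream and -21.3 in bodies with CPM per kilobase, -44.5 upstream with the libraries labelled cave, and -16.3 in bodies with genes at 0 counts included. With CPM per kilobase the limits of 0.1 and 10 held other classes, of 6527 and 2037 genes upstream and 6851 and 2108 in bodies. While these differences grew, rho became weaker, at -0.26 upstream and -0.21 in bodies. The causes were not tested. Of 30 list values under another call minimum or a limit of 20%, 28 stayed within the exact interval of the reported share; a limit of 20% gave 51.3% for ribosomal proteins and 68.1% for developmental regulators. No paired analysis was possible because the results come from no test and only 1 WGBS library was used. With 1 WGBS library the spread between animals is unknown, and gene length here is the span of the annotated gene, introns included.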
